A study of Mus musculus with 6 samples.

Results

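Cxcl12, Cxcr4, Ackr3, Kitl, Kit, Csf1, Csf1r, Il34, Il7 and Il33 encode factors that keep blood cells alive, in place or dividing, and the receptors that bind some of those factors. They were taken by symbol from the gene table of the deposited matrices, where all 10 were found among 32285 genes. Their RNA was followed in single cells of mouse lung, to ask which cells carry a factor, which carry its receptor, and whether niche cells of leukaemic lungs differ from those of normal lungs. The AML group was 3 libraries of sorted lung niche cells (the sort was for cells outside the blood lineage) from mice whose lungs were infiltrated by acute myeloid leukaemia with the genotype Trp53 R172H/Δ, a missense allele of the tumour suppressor p53 over a deletion. Sorted GFP+ leukaemia cells were pooled into each of these libraries, at 20% against 80% niche cells, so the number of leukaemia cells per library was set by hand. The Control group was 3 libraries of niche cells from normal lungs, with no leukaemia cells pooled in. Both groups were lung digests sorted in the same way and made into droplet libraries that read the 3' ends of transcripts. The labels used here give no strain, age, sex, treatment or number of animals per library. They do not say that replicates came from separate animals, so a p-value here weighs a difference against the scatter of 3 libraries per group, part of which may be technical.

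Cxcl12 encodes a chemokine that holds blood stem cells and B cells in the bone marrow through the receptor CXCR4, while ACKR3 (CXCR7) binds the same chemokine and removes it without classical chemokine signalling. Kitl encodes stem cell factor, made as membrane-bound and secreted forms, and Kit its receptor tyrosine kinase, carried by blood progenitors, mast cells and also lung capillary endothelium. CSF1 and IL-34 are ligands of CSF1R, the receptor that monocytes and macrophages need to live. IL-7 is a survival factor of lymphocytes, and IL-33 is a nuclear alarmin read by the receptor ST2, the product of Il1rl1, on mast cells, innate lymphoid cells and regulatory T cells.

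On mouse build mm10 (GRCm38, GENCODE M21) Cxcl12 lies at chr6:117168535-117181367, Cxcr4 at chr1:128588199-128592293, Ackr3 at chr1:90203980-90216751, Kitl at chr10:100015630-100100416 and Kit at chr5:75574916-75656722. Csf1 lies at chr3:107741048-107760469, Il34 at chr8:110741829-110805924, Il7 at chr3:7569994-7613760 and Il33 at chr19:29925114-29960718. All 10 are protein-coding genes. RefSeq upstream sequence of build GRCm38.p6 was matched to 7 of the 10, and 3 are printed. These are the chemokine gene Cxcl12 and the receptor genes Cxcr4 and Kit, which passed the AML against Control test in 1, 2 and 3 cell classes. Each runs 5' to 3' in the sense of the gene. The Cxcl12 and Cxcr4 windows hold the 250 bases before the RefSeq start, and the Kit window stops after 179 bases, where an exon of GENCODE M21 begins. Capitals mark a match, on either strand, to 1 of 4 motifs spelled out after the sequences.
Cxcl12 (chr6:117168285-117168534, plus strand): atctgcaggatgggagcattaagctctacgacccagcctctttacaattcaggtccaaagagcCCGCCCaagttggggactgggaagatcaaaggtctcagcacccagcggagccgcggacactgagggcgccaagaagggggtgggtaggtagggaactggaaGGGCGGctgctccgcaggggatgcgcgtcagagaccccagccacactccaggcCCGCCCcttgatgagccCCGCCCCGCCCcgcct
Cxcr4 (chr1:128592300-128592549, minus strand): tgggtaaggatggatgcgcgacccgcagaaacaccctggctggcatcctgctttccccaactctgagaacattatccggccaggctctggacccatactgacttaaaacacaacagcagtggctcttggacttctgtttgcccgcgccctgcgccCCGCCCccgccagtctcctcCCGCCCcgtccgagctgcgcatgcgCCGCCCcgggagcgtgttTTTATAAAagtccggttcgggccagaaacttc
Kit (chr5:75574737-75574915, plus strand): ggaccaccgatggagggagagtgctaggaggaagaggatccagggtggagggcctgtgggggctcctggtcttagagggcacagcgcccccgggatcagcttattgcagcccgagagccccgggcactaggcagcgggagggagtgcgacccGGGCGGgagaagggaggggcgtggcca
The Cxcl12 window has 64.4% G and C, the Cxcr4 window 61.2% and the Kit window 69.3%. The GC box, GGGCGG, had 5 matches in the Cxcl12 window, 3 in the Cxcr4 window and 1 in the Kit window, and 32.7% of 32851 promoter windows of 250 bases hold at least 1. The TATA box, TATAAA, had 2 matches in the Cxcr4 window, which overlap on opposite strands and touch no GC box, and 12.4% of promoter windows hold it. The core of the hypoxia response element, searched as ACGTG, had 0 matches in the 3 windows, and 16.6% of promoter windows hold it. A GATA site, searched as AGATAA, also had 0 matches, and 9.99% of promoter windows hold it. These letters are a description of the windows and say nothing of which factor binds there.

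The 6 matrices held 28516 barcodes with 19060359 to 46018541 UMIs (unique molecular identifiers, each standing for 1 captured transcript) per library. After filtering, 4496, 4624 and 5790 cells of AML 1, AML 2 and AML 3 and 1718, 3673 and 3444 cells of Control 1, Control 2 and Control 3 were used, 23745 in all. Cells were clustered without the 10 genes and without a wider list of 36 support factors and receptors, and 19 classes were named from fixed markers. The 5 clusters that stayed unnamed held 1289 cells. A class was left out of the ordering of levels unless it had at least 20 cells in 2 libraries, which left 17 classes, and 10 niche classes with 20 cells in every library were tested. Although the sort was labelled non-haematopoietic, 783 cells fell in mature blood classes (330 B lymphocytes, 261 T or NK lymphocytes, 132 monocytes or macrophages and 60 neutrophils). The leukaemia class held 603, 1135 and 1095 cells of the AML libraries and 0, 2 and 9 of the Control libraries. Its markers include Myb, Gata2 and Gata1, and 1 of its 3 clusters was led by mast cell or basophil markers. Ptprc, the gene of the blood cell antigen CD45, stood at only 0.834, 2.18 and 3.03 CPM (defined below) in this class in the AML libraries. The summed level of the globin genes Hbb-bs and Hba-a1 in the class was 1769, 776 and 892 CPM there. Libraries shared at most 20 barcodes, 0.428% of the smaller library (AML 1 and AML 2). General capillary cells of AML 2 stood apart, with 88.9% in 1 cluster (cluster 8) that held 7.62% and 38.3% of those of AML 1 and AML 3 and at most 0.397% of those of any Control library.

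A level is given as CPM, the gene's UMIs per 1000000 UMIs summed over all cells of a class in a library. Levels are compared across classes for the same gene and not between genes. Each member had its own leading class, and the leading class of a factor was in no case that of its receptor. Mean levels over libraries were highest in arterial endothelium for Cxcl12, B lymphocytes for Cxcr4, venous endothelium for Ackr3, aerocytes for Kitl, general capillaries for Kit, neutrophils for Csf1, monocytes or macrophages for Csf1r, pericytes for Il34 and alveolar type 2 cells for Il33. Il7 had no class with a mean above 6.39 CPM among the 17. Library ranges of the first and second class did not overlap for 4 of the members (Ackr3, Kitl, Csf1r and Il34), so for the other 6 the leading place is not separated from the next beyond the spread of libraries.

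**Figure D1:**
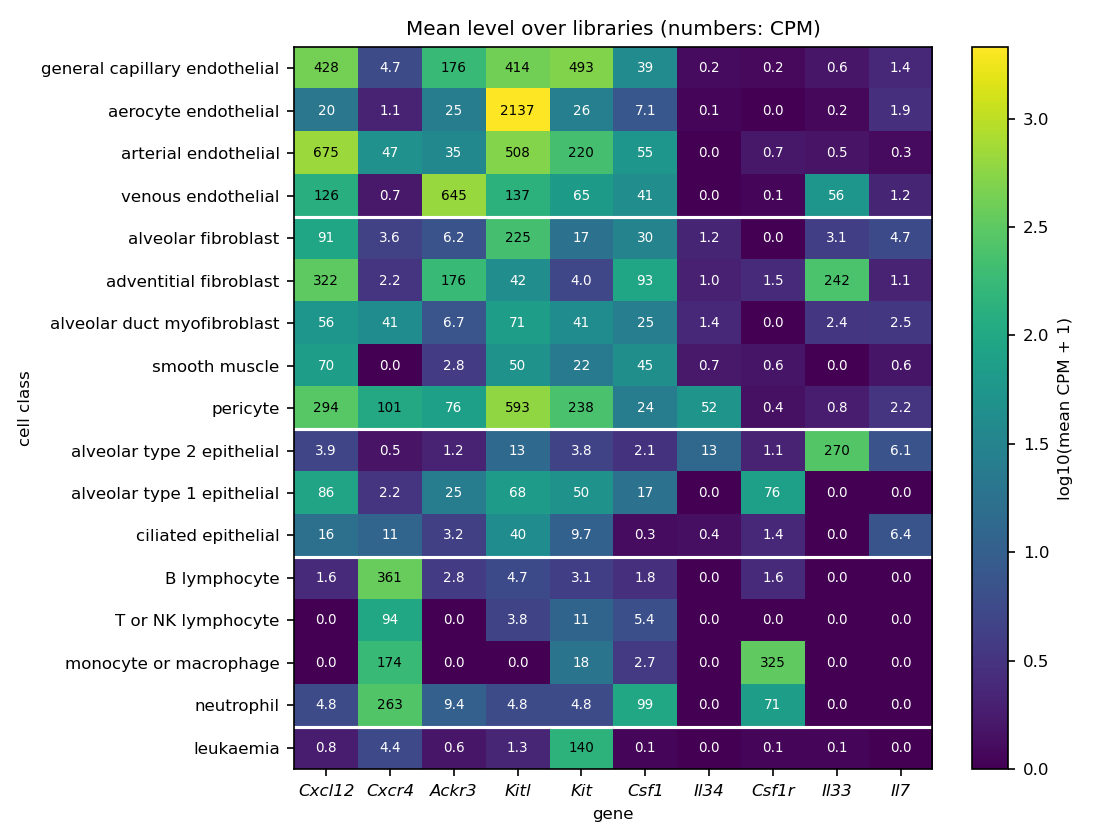
Mean CPM of each of the 10 genes (columns) in each cell class (rows), averaged over the libraries with at least 20 cells of the class, on a log10(CPM + 1) colour scale with the CPM printed. Kitl in aerocytes (2137 CPM) is the highest value of its column, and the leukaemia row has 1 bright cell, Kit (140 CPM).

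Over all 10 niche classes, 9 of the 10 members could be tested in at least 1 class, in 43 of 100 possible pairs of member and class. Of these 8 passed, all lower in AML, where 2.28% of all 74124 gene and class pairs passed and 1.38% passed as lower. Members were lower in 33 and higher in 10 pairs, with a median log2 change of -0.55, against class medians over all genes between -0.01 and 0.01. AML and Control ranges did not overlap in 16 pairs, where 22.2% of all pairs did not. These pairs share libraries and cells and are not independent. The low-count filter asks for enough counts in 3 libraries, so a pair can enter the test through 1 group alone. The direction of such a pair is then partly set by the filter, and the common direction of the calls is a description. The count turned on single libraries. It was 19 of 47 without AML 1, where 5.14% of all pairs passed, 4 of 50 without AML 2 (0.646%) and 2 of 44 without Control 1 (1.23%). Without AML 3 edgeR called 0 of 50 pairs, with 22 at an unadjusted p under 0.05, and 0.504% of all gene and class pairs passed. In cells with no UMI of the 4 endothelial genes, with endothelial classes kept whole, 3 of 30 pairs passed, where 2.38% of all pairs did.

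The calls lay in 6 of the 10 classes. Arterial endothelium had 2 of 6 tested members called, where 3.72% of its genes were called, and smooth muscle 2 of 4 (1.04%). Call counts were 1 of 7 in general capillary cells (2.23%), 1 of 5 in alveolar type 2 cells (4.29%), 1 of 2 in alveolar fibroblasts (3.74%) and 1 of 1 in ciliated cells (0.616%). No member was called by edgeR in aerocytes (0 of 5, 1 at an unadjusted p under 0.05, with 3.17% of genes called), pericytes (0 of 6, 2 unadjusted, 0.116%), venous endothelium (0 of 6, 0 unadjusted, 0.362%) or alveolar duct myofibroblasts (0 of 1, 1 unadjusted, 1.42%). DESeq2 also called 0 in these 4 classes. Without AML 1, Kit, Cxcl12 and Il34 passed in pericytes and Cxcl12 in myofibroblasts, and with no filter on low counts Ackr3 passed in aerocytes (log2 1.28, adjusted p = 0.00942) and Kitl in myofibroblasts. With doublets kept Ackr3 passed, higher in AML, in aerocytes (log2 1.73, adjusted p = 0.0129) and pericytes (1.75, adjusted p = 0.0117).

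**Figure D2:**
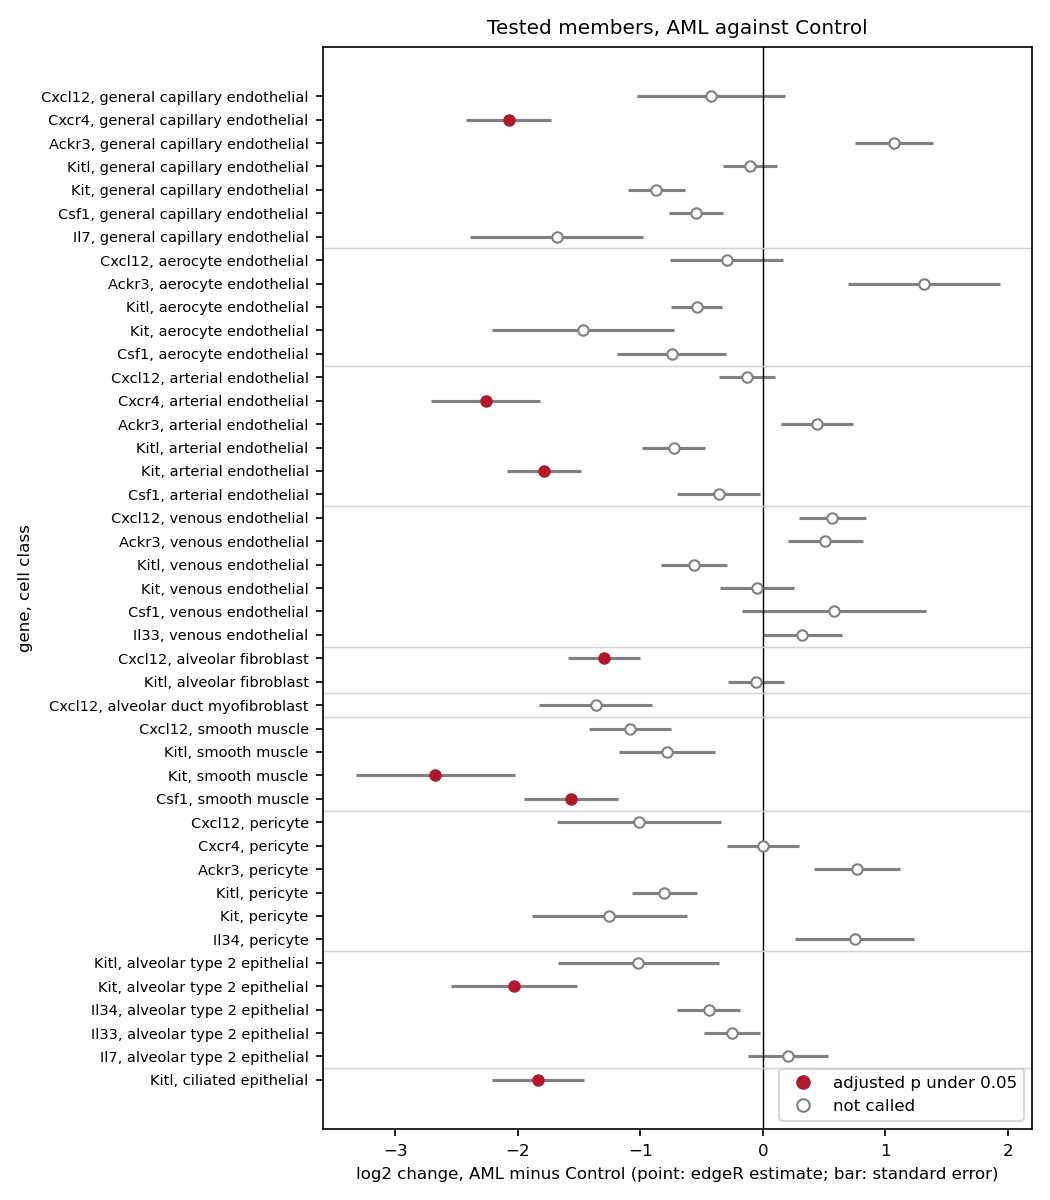
Log2 change, AML minus Control, of each tested pair of member and class (point, edgeR estimate; bar, standard error); filled points passed the adjusted threshold of 0.05. The 8 filled points are all left of 0, from -2.67 (Kit, smooth muscle) to -1.30 (Cxcl12, alveolar fibroblast).

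The chemokine gene Cxcl12 was carried by vessels and their neighbours. Arterial endothelium had 692, 572 and 634 CPM in the AML libraries and 771, 552 and 829.6 CPM in the Control libraries. General capillary cells, the main capillary type with a gas-exchange and progenitor role, had 670.2, 87.6 and 339.7 CPM in AML and 423, 466 and 580.5 CPM in Control. The arterial ranges overlap, and in general capillaries AML 2 stood far below all others while AML 1 stood above every Control library. Neither difference was called, with a log2 change (AML minus Control) of -0.13 (SE 0.23, adjusted p = 0.808, edgeR quasi-likelihood test with Benjamini-Hochberg adjustment over all genes of the class) in arterial and -0.42 (SE 0.60, adjusted p = 0.709) in general capillary cells.

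Outside the endothelium Cxcl12 reached 322 ± 46.6 CPM in adventitial fibroblasts (SD, n = 4 libraries), the fibroblasts of the cuffs around large vessels and airways. Aerocytes, the second capillary type, specialised in gas exchange, carried 19.9 ± 9.58 CPM (SD, n = 6). Venous endothelium lay between, with 221, 120 and 106 CPM in AML and 93.7, 118 and 96.0 CPM in Control. Leukaemia cells carried 1.84, 0.267 and 0.439 CPM. Among the 4 endothelial classes the mean Cxcl12 level was thus lowest in aerocytes and highest in the arterial class, whose libraries overlap those of general capillary cells.

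In alveolar fibroblasts, the lipid-rich fibroblasts beside the alveolar epithelium, Cxcl12 stood at 81.9, 29.9 and 51.8 CPM in AML and 149.8, 109 and 123 CPM in Control. Every AML library was below every Control library. The log2 change was -1.30 (SE 0.29, adjusted p = 0.0154), a 2.46-fold lower level. The summed level of 4 endothelial genes (Cdh5, Pecam1, Cldn5 and Egfl7) in the same fibroblasts was 41.0, 71.6 and 44.8 CPM in AML and 681, 96.2 and 342 CPM in Control. In the 734 alveolar fibroblasts with no UMI of those genes the change was -1.03 (adjusted p = 0.110). The call was also lost without AML 2 (adjusted p = 0.108), AML 3 (0.0665), Control 1 (0.0528) or Control 3 (0.0622), with doublets kept (0.174) and at a coarser clustering, Leiden resolution 0.5 in place of 1.0 (0.137). The coarser clustering left no adventitial class and its alveolar fibroblast class held 991 cells, so that value is for a wider class. In smooth muscle cells Cxcl12 had 66.3, 35.7 and 27.5 CPM in AML and 119, 84.4 and 85.9 CPM in Control, with no overlap, and was not called (log2 -1.08, SE 0.34, adjusted p = 0.161).

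The receptor gene Cxcr4 was a blood cell gene with a vessel component. B lymphocytes carried 430.2, 349 and 312 CPM in AML and 317 and 400.05 CPM in Control 2 and Control 3. Neutrophils had 152 and 375 CPM in AML 1 and AML 3, the libraries with at least 20 of them, and monocytes or macrophages had 162 and 185 CPM there. T or NK lymphocytes had 93.9 ± 36.1 CPM (SD, n = 5). Leukaemia cells carried little Cxcr4, with 2.95, 2.18 and 8.17 CPM, which is 302 UMIs in all 2844 cells of the class. Here and below, cells with at least 2000 UMIs were thinned to 2000, and cells with fewer were left out of thinned shares. The part left out differs between classes and groups. Of the thinned cells, 0.732% of leukaemia cells had a Cxcr4 UMI (exact 95% interval 0.447 to 1.13%), against 53.8% (45.7 to 61.8%) of B lymphocytes of the AML libraries. It was 0% of 782 alveolar type 2 cells of the AML libraries, a type that should lack it, where that count of 0 allows up to 0.471%. Unthinned, the shares were 4.80% of leukaemia cells (median 23393 UMIs), 59.4% of B lymphocytes (2325.5 UMIs) and 0.762% of type 2 cells (12742 UMIs). Intervals cover counting error only.

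Among niche cells Cxcr4 was highest in pericytes, the mural cells of capillaries, at 101 ± 28.9 CPM (SD, n = 6). Arterial endothelium had 34.9, 6.79 and 7.11 CPM in AML and 58.2, 75.2 and 102 CPM in Control. General capillary cells had 2.48, 1.03 and 1.79 CPM (22, 9 and 15 UMIs) in AML and 6.82, 6.38 and 9.66 CPM (50, 66 and 73 UMIs) in Control. All 3 AML libraries were below all 3 Control libraries in both endothelial classes. Cxcr4 fell in arterial endothelium by 2.26 on the log2 scale (SE 0.45, adjusted p = 0.0178, edgeR), 4.80-fold, and in general capillary cells by 2.07 (SE 0.35, adjusted p = 0.0277), 4.21-fold. In the clusters that held most Control general capillary cells, AML 1 had 2.16 CPM in cluster 2, against 5.97, 4.80 and 5.84 CPM in the Control libraries, and 8.05 CPM in cluster 3, against 6.86, 8.15 and 9.07 CPM. AML 1 thus lay below the Control range in cluster 2 and within it in cluster 3, on few UMIs, since its whole class held 22. AML 2 and AML 3 had at most 33 cells in either.

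The arterial class itself was not made of the same cells in both groups. At that coarser clustering, 61.2, 84.4 and 72.7% of the arterial cells of the AML libraries stayed arterial, against 30.1, 28.3 and 30.2% of those of the Control libraries, and nearly all the others joined the general capillary class. Cells that stayed arterial carried the arterial markers Gja5 (154 CPM in AML and 237 CPM in Control, libraries summed) and Bmx (189 and 227 CPM), while cells that moved had 7.32 and 8.21 CPM of Gja5. Cxcr4 was lower in AML on both sides of that split. Cells that stayed arterial had 26.2, 7.76 and 5.39 CPM in AML (10, 4 and 3 UMIs) and 56.7, 35.3 and 79.8 CPM in Control. Cells that moved had 52.6, 0 and 13.7 CPM in AML (10, 0 and 2 UMIs, with 19 such cells in AML 2) and 59.2, 101 and 114 CPM in Control. The AML values of both sides thus rest on few UMIs. With the coarser classes the log2 change was -2.20 in arterial (adjusted p = 0.0323) and -2.80 in general capillary cells (adjusted p = 0.0168). The arterial call was lost without AML 2 (adjusted p = 0.0635), AML 3 (0.104) or Control 2 (0.0509) and with the replicate number as a block (0.0503), and the general capillary call without AML 3 (0.139), Control 1 (0.118) or Control 3 (0.105).

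Pericytes did not show that pattern for Cxcr4, with 62.3, 117 and 136 CPM in AML and 70.2, 110 and 113 CPM in Control. The groups overlap and the log2 change was -0.00 (SE 0.29, adjusted p = 0.999). The pericyte change differed from that in general capillary cells by 1.96 on the log2 scale (SE 0.44, adjusted p = 0.0329, interaction term of an edgeR fit with the library as a block). That difference lost its call without AML 2 (adjusted p = 0.134), AML 3 (0.321), Control 1 (0.158) or Control 3 (0.103), with doublets kept (0.193) and with the members kept among the clustering genes (0.453). Smooth muscle cells, mural cells of larger vessels, held 0 Cxcr4 UMIs in all 6 libraries.

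**Figure D3:**
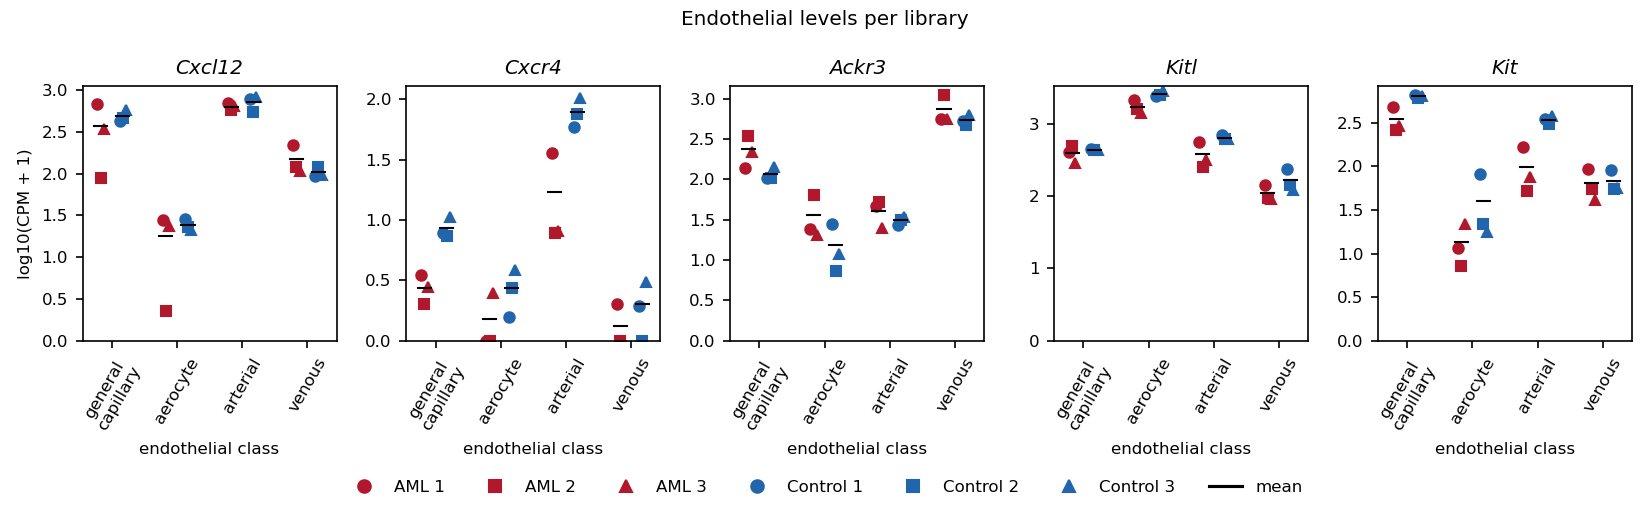
Level of the endothelial members in each library, as log10(CPM + 1), in 4 endothelial classes; each point is 1 library, AML in red left of Control in blue. The 3 AML points lie below the 3 Control points for Cxcr4 and Kit in general capillary and arterial cells, and the Kitl points of aerocytes lie above those of all other classes.

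Ackr3, the scavenging receptor of the same chemokine, marked veins. Venous endothelium carried 559, 1119 and 561 CPM in AML and 527, 474 and 633 CPM in Control. AML 2 was the highest library, and the other libraries of the groups overlap. The venous log2 change was 0.51 (SE 0.31, adjusted p = 0.563). General capillary cells had 138, 349.7 and 219.9 CPM in AML and 104, 103 and 142 CPM in Control, where AML 1 lay below Control 3 and the other AML libraries above all Controls. That difference was not called (log2 1.07, SE 0.32, adjusted p = 0.0995), but passed without AML 1 (1.36, adjusted p = 0.0112) and with DESeq2 (adjusted p = 0.0140). Lymphatic endothelium, 77 cells in all, held 45 Ackr3 UMIs (141 CPM pooled, exact Poisson 95% interval 103 to 188) and mesothelial cells 81 (87.1 CPM, 69.2 to 108), and adventitial fibroblasts averaged 176 ± 53.8 CPM (SD, n = 4).

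General capillary cells of the groups were held by different clusters, which bears on Cxcl12 and Ackr3. Cluster 8 held 7.62, 88.9 and 38.3% of the class in AML and 0, 0.397 and 0.381% in Control, and cluster 1 held 39.6, 1.84 and 34.6% in AML and 0.972, 6.89 and 5.64% in Control. Clusters 2 and 3 together held most Control cells, at 36.7, 31.7 and 29.0% in cluster 2 and 36.9, 27.2 and 36.0% in cluster 3. In cluster 8 the AML libraries had 356, 72.4 and 193 CPM of Cxcl12 and 228, 359 and 282 CPM of Ackr3. In cluster 1, Cxcl12 stood at 1037, 634 and 579 CPM in AML and 1170.3 (8 cells), 1420.4 and 1948 CPM in Control. Cxcl12 was thus lower in every AML library than in every Control library within cluster 1, while the class sums of the 2 groups overlap. These are values within clusters with no test.

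**Figure D4:**
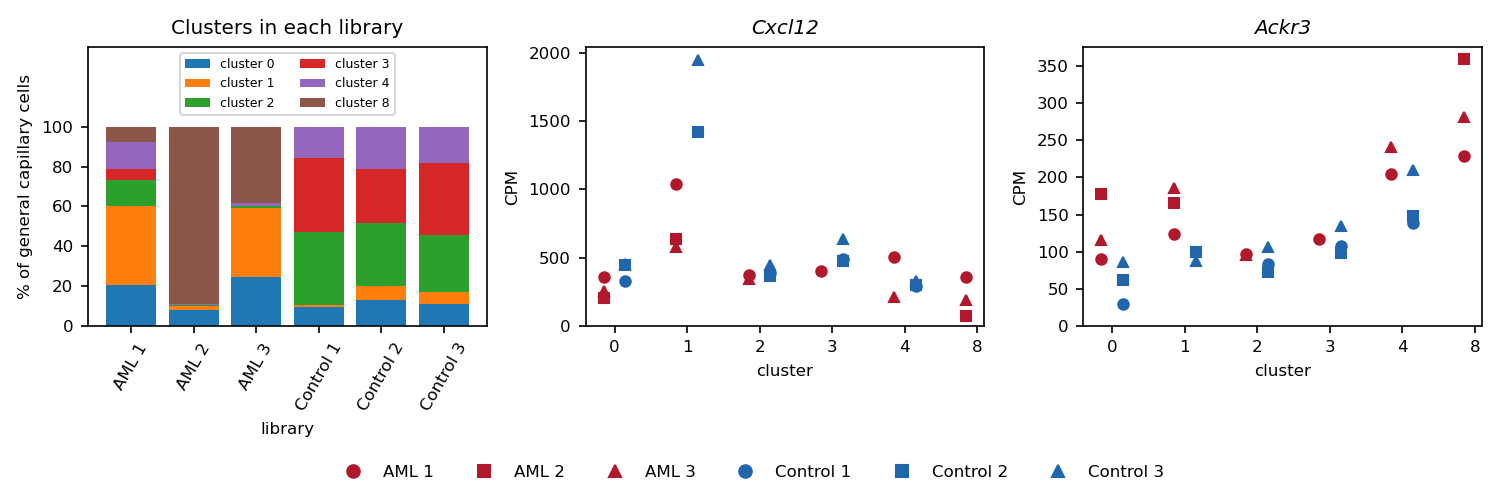
Share of general capillary cells in each cluster per library (left, percent) and levels of 2 members in those clusters (CPM). AML 2 has 88.9% of its cells in cluster 8, where its Cxcl12 level is 72.4 CPM.

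Kitl, the gene of stem cell factor, was a gene of aerocytes first. Aerocytes had 2119.9, 1594 and 1424 CPM in AML and 2389, 2495 and 2798 CPM in Control, and after thinning to 2000 UMIs a Kitl UMI was found in 93.0% and 98.0% of them. In leukaemia cells, by comparison, 0.293% had 1 after thinning. Unthinned, the shares were 94.6% of AML and 97.6% of Control aerocytes (median 4661 and 7584.5 UMIs) and 2.08% of leukaemia cells. Every AML library was below every Control library in aerocytes, at a small size that was not called (log2 -0.54, SE 0.21, adjusted p = 0.193). The next classes were pericytes, with 486, 456 and 364 CPM in AML and 613, 731 and 909.8 CPM in Control, and arterial endothelium, with 559, 249.7 and 317 CPM in AML and 687, 617 and 619 CPM in Control. Neither was called (pericytes log2 -0.80, SE 0.26, adjusted p = 0.330; arterial -0.73, SE 0.26, adjusted p = 0.116), although AML and Control ranges did not overlap in either, and the arterial value passed without AML 1 (adjusted p = 0.0126), with the replicate number as a block (0.0311) and with doublets kept (0.0435). In the 121 pericytes with no UMI of the 4 endothelial genes the groups overlap. Kitl stood there at 164 (9 cells), 449 and 392 CPM in AML and 176, 537 and 415 CPM in Control.

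General capillary cells carried 409, 485 and 287 CPM of Kitl in AML and 441, 433 and 431 CPM in Control, and alveolar fibroblasts 273, 209 and 179 CPM in AML and 225, 229 and 235 CPM in Control. In both the groups overlap, with log2 changes of -0.11 (SE 0.22, adjusted p = 0.805) and -0.06 (SE 0.23, adjusted p = 0.939). Mesothelial cells, the lining of the lung surface, held 309 Kitl UMIs in 78 cells (332 CPM pooled, 296 to 372).

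Ciliated airway cells showed the 1 called Kitl difference. They held 13, 1 and 6 Kitl UMIs (30.6, 4.16 and 13.7 CPM) in AML and 32, 32 and 38 UMIs (54.3, 64.8 and 72.6 CPM) in Control, with no overlap. The log2 change was -1.84 (SE 0.38, adjusted p = 0.00378), 3.57-fold lower. The call was lost without AML 3 (adjusted p = 0.0835), with equal cells per library (-1.35, adjusted p = 0.202), with DESeq2 (0.0507) and with doublets kept (-0.26, adjusted p = 0.879). The 144 ciliated cells with no UMI of the 4 endothelial genes held 46 Kitl UMIs (26.1 CPM), at 13.5, 6.39 and 16.475 CPM in AML and 29.9, 60.9 and 16.47 CPM in Control. In those cells AML 3 was level with Control 3.

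Kit, the receptor gene, was carried by capillary endothelium above all and by the leukaemia cells. General capillary cells had 482.5, 263 and 289.7 CPM in AML and 667, 604 and 649.6 CPM in Control. Leukaemia cells had 113, 152 and 155 CPM (140 ± 23.4, SD, n = 3). B lymphocytes averaged 3.11 CPM. Thinned to 2000 UMIs, 22.4% of leukaemia cells had a Kit UMI (20.8 to 24.0%), against 0.633% of B lymphocytes of the AML libraries. Unthinned, the shares were 80.7% at a median of 23393 UMIs and 0.855% at 2325.5 UMIs. Aerocytes, which carried the most Kitl, had 10.8, 6.29 and 21.2 CPM of Kit in AML and 80.3, 20.9 and 16.5 CPM in Control.

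In general capillary cells every AML library had less Kit than every Control library, and the log2 change of -0.87 (SE 0.23, adjusted p = 0.0741) was not called. It passed without AML 1 (-1.15, adjusted p = 0.00929), with no filter on low counts (0.0309) and with DESeq2 (0.00502). After thinning, a Kit UMI was found in 44.8% of AML and 66.9% of Control general capillary cells, unthinned in 58.4 and 83.9% (median 3349.5 and 4866 UMIs). In cluster 2, Kit stood at 620.3, 350.1 (5 cells) and 494 CPM in AML and 740, 690.2 and 776 CPM in Control. The AML libraries other than AML 1 had few cells in that cluster, so a fall within it rests mainly on AML 1. In cluster 0, with 426, 332 and 299 CPM in AML and 263, 472 and 427 CPM in Control, the groups overlap.

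Arterial endothelium had 166, 51.0 and 73.9 CPM of Kit in AML and 345, 305 and 378 CPM in Control. The groups do not overlap, and Kit fell by 1.78 on the log2 scale (SE 0.30, adjusted p = 0.00427), 3.45-fold. Thinned shares of arterial cells with a Kit UMI were 15.6% in AML (12.1 to 19.7%) and 43.8% in Control (39.9 to 47.9%), and unthinned 24.3 and 66.7% (median 3724.5 and 5298 UMIs). Kit differed strongly between the 2 kinds of cells that the coarser clustering separates. Cells that stayed arterial had 70.7, 38.8 and 46.7 CPM in AML and 125, 67.6 and 60.4 CPM in Control, where the groups overlap. Cells that moved to the general capillary class had 357, 137 and 178 CPM in AML and 505, 461 and 562 CPM in Control, where they do not. Since 72.5% of AML and 29.3% of Control arterial cells were of the first kind, the class sums compare different mixtures. With the coarser classes the arterial log2 change was -0.61 (adjusted p = 0.431). The call was also lost without AML 3 (adjusted p = 0.0908) or Control 1 (0.0889). The change in the arterial class differed from that in general capillary cells by -0.97 on the log2 scale (SE 0.16, adjusted p = 0.00015), and with the coarser classes this difference was 0.30 (adjusted p = 0.737).

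Pericytes showed Kit at 287, 17.5 and 90.9 CPM in AML and 388, 347 and 298 CPM in Control, but the 4 endothelial genes summed to 3806 to 5936 CPM in the pericyte class. The log2 change of Kit there was -1.25 (SE 0.63, adjusted p = 0.614), and -2.63 without AML 1 (adjusted p = 0.000113). In the 121 of 326 pericytes with no UMI of those genes Kit and Ackr3 had 0 UMIs and Cxcl12 27.5 CPM (10 UMIs), while Cxcr4 stood at 206, Kitl at 404 and Il34 at 137 CPM. The Kit and Ackr3 levels of the pericyte class therefore came only from cells that also held endothelial RNA. Alveolar type 1 cells, the flat cells of the gas exchange surface, were alike, with 892 to 6220 CPM of the endothelial genes, and their 62 cells without those UMIs held 0 UMIs of Cxcl12, Cxcr4 and Ackr3 and 1 of Kit.

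**Figure D5:**
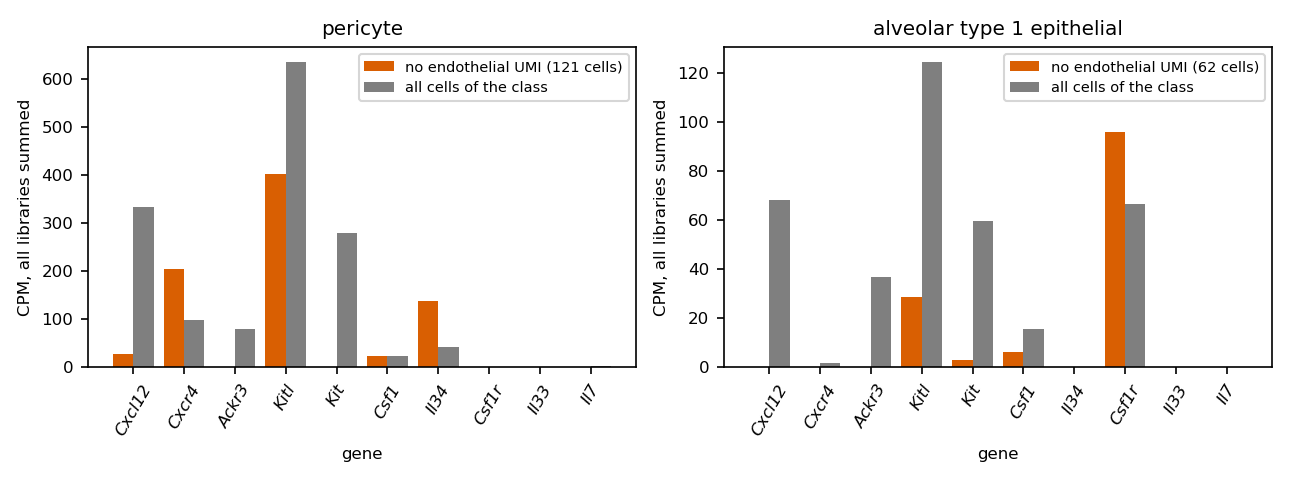
Levels of the members (CPM over all libraries summed) in cells of a class with no UMI of Cdh5, Pecam1, Cldn5 or Egfl7 (orange) and in all cells of the class (grey). In pericytes the orange bars of Kit and Ackr3 are at 0 and those of Kitl (404 CPM), Cxcr4 (206 CPM) and Il34 (137 CPM) are not.

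Kit also passed the test in 2 classes where it was rare. Smooth muscle cells held 0, 4 and 1 Kit UMIs in AML and 24, 18 and 10 in Control (0, 17.8 and 2.11 against 50.9, 29.8 and 33.0 CPM), a log2 change of -2.67 (SE 0.65, adjusted p = 0.0380). Alveolar type 2 cells, which make surfactant, held 9, 1 and 3 UMIs in AML and 22, 24 and 11 in Control (2.98, 0.375 and 0.722 against 7.97, 6.76 and 3.73 CPM), a log2 change of -2.03 (SE 0.51, adjusted p = 0.0319). The endothelial genes moved with both. They summed to 52.3, 71.4 and 16.9 CPM in AML and 191, 389 and 135 CPM in Control in smooth muscle, and to 66.9, 31.5 and 27.4 CPM in AML and 112, 105 and 54.9 CPM in Control in type 2 cells. The part of this RNA in the Kit counts was not tested in smooth muscle, where 226 cells with no endothelial UMI held 21 Kit UMIs (13.7 CPM), at 0, 22.6 and 0 CPM in AML and 24.9, 21.4 and 18.6 CPM in Control, so that AML 2 lay within the Control range. In the 855 type 2 cells with no endothelial UMI Kit had 7 UMIs (0.575 CPM), too few for the test. The smooth muscle call was lost in 9 of 13 alternatives, among them without AML 1 (adjusted p = 0.102), AML 3 (0.352), Control 2 (0.149) or Control 3 (0.0611). The type 2 call was lost without AML 2 (adjusted p = 0.161), AML 3 (0.203), Control 1 (0.144) or Control 2 (0.0725), and with doublets kept the change was 0.049.

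The macrophage factors were low in niche cells. Csf1 averaged 92.7 ± 18.9 CPM in adventitial fibroblasts (SD, n = 4) and 54.7 ± 22.3 CPM in arterial endothelium (SD, n = 6), and stood at 134 CPM pooled (112 to 160) in mesothelial cells. Neutrophils led the order on 2 libraries that did not agree, with 28.6 CPM (3 UMIs) in AML 1 and 169 CPM (9 UMIs) in AML 3. Smooth muscle cells had 31.4, 13.4 and 19.0 CPM of Csf1 in AML and 76.3, 71.1 and 59.4 CPM in Control. The groups do not overlap, and Csf1 fell by 1.57 on the log2 scale (SE 0.39, adjusted p = 0.0399), 2.96-fold, but 9 of 15 alternatives lost the call. It was lost without AML 2 (adjusted p = 0.106), AML 3 (0.167), Control 1 (0.151), Control 2 (0.114) or Control 3 (0.065), and at the coarser clustering the change was -0.98 (adjusted p = 0.397). That clustering left no pericyte class and its smooth muscle class held 552 cells, so the value is for a wider class. Csf1 stood at 52.9 CPM in the 226 smooth muscle cells with no endothelial UMI.

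Il34, the second ligand of CSF1R, was above 1.35 CPM in 2 of the 17 classes. Pericytes carried 21.5, 93.5 and 90.9 CPM (9, 16 and 18 UMIs) in AML and 25.9, 39.1 and 39.6 CPM (7, 26 and 13 UMIs) in Control, and alveolar type 2 cells 12.9, 10.5 and 6.98 CPM in AML and 13.8, 13.2 and 17.6 CPM in Control. In pericytes AML 2 and AML 3 were above all Controls and AML 1 below them, and the log2 change of 0.75 (SE 0.48, adjusted p = 0.689) was not called, but passed without AML 1 (1.32, adjusted p = 0.0387). In type 2 cells all AML libraries were below all Controls, with a log2 change of -0.44 (SE 0.26, adjusted p = 0.337).

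The receptor gene Csf1r was at 405 and 245 CPM in monocytes or macrophages of AML 1 and AML 3; the class held 389 Csf1r UMIs in all. Leukaemia cells carried 0.111, 0.153 and 0.176 CPM, 10 UMIs in the class. Alveolar type 1 cells had Csf1r at 53.3 and 66.5 CPM in AML 1 and AML 3 and 107 CPM in Control 2 (38 UMIs in 116 cells). Ptprc, the 1 blood gene checked in them, was at 0 in every library, and the 62 type 1 cells with no endothelial UMI held 30 Csf1r UMIs (96.2 CPM). Every class below neutrophils in the order of 17 averaged at most 1.55 CPM, and mesothelial cells held 20 Csf1r UMIs (21.5 CPM pooled, 13.1 to 33.2).

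Il7 was scarce throughout. Lymphatic endothelium, a known source of IL-7 in mouse, held 23 Il7 UMIs in 77 cells (71.8 CPM pooled, 45.5 to 108), and it had 20 cells in 1 library only. Ciliated and alveolar type 2 cells averaged 6.39 and 6.06 CPM. The receptor gene Il7r stood at 1899 ± 339 CPM in T or NK lymphocytes (SD, n = 5) and at 0.149 CPM pooled (10 UMIs) in leukaemia cells.

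Il33 was carried by alveolar type 2 cells and by adventitial and surface cells, while ciliated and alveolar type 1 cells held 0 Il33 UMIs. Alveolar type 2 cells had 317, 159 and 227 CPM in AML and 294, 346 and 279 CPM in Control, with overlap and a log2 change of -0.25 (SE 0.23, adjusted p = 0.562). Adventitial fibroblasts had 189 and 72.9 CPM in AML 1 and AML 3 and 439.8 and 265 CPM in Control 2 and Control 3. Too few adventitial cells were left in AML 2 and Control 1 for a level, and the class was not tested. Mesothelial cells stood at 182 CPM pooled and venous endothelium at 55.8 ± 21.2 CPM (SD, n = 6), while arterial, general capillary and aerocyte endothelium averaged at most 0.570 CPM.

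The difference between a class's change and that of general capillary cells passed in 4 of 63 pairs of member and class, where 1.64% of all 107122 gene and class pairs passed. The share of genes that passed was 3.13% in arterial cells, 0.111% in pericytes, 1.12% in ciliated cells and 1.82% in myofibroblasts. Besides Kit in arterial cells and Cxcr4 in pericytes these were Kitl in ciliated cells (-1.63, SE 0.37, adjusted p = 0.00704) and Kitl in alveolar duct myofibroblasts (-2.25, SE 0.47, adjusted p = 0.000744). Myofibroblasts, the contractile cells of the alveolar ducts, had 31.1, 10.2 and 18.0 CPM of Kitl in AML and 266.5, 54.5 and 46.1 CPM in Control, with Control 1 far above the rest. The 4 endothelial genes were also highest there, at 1156 CPM in Control 1 and at most 410.2 CPM in any other library. Without Control 1 the difference was -1.10 (adjusted p = 0.636), and it also lost its call without AML 2 (0.124) and with doublets kept (0.362). The ciliated difference was lost without AML 2 (adjusted p = 0.113) or AML 3 (0.0978), with equal cells per library (0.254) and with doublets kept (-0.12, adjusted p = 0.968).

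A wider list of 36 other support factors and receptors was read from the same fits. Of these, 25 genes were tested in 114 pairs, and 8 passed, 2 higher and 6 lower in AML, where 2.28% of all pairs passed and 1.38% passed as lower, with a median log2 change of -0.15 over the 114. In aerocytes Itga4, a subunit of the integrin VLA-4, fell to 20.8, 15.1 and 18.1 CPM in AML against 66.3, 33.8 and 48.4 CPM in Control (log2 -1.37, SE 0.28, adjusted p = 0.0109). Lifr, the receptor of leukaemia inhibitory factor, fell there to 101, 84.2 and 100.5 CPM against 224, 153 and 178 CPM (log2 -0.90, SE 0.20, adjusted p = 0.0197). Cd74, the invariant chain of MHC class II and a receptor of MIF, fell in aerocytes (19.4, 12.6 and 6.80 CPM in AML against 56.4, 34.8 and 22.2 CPM in Control, log2 -1.48, SE 0.38, adjusted p = 0.0424), alveolar fibroblasts (-3.54, SE 0.56, adjusted p = 0.00178) and alveolar type 2 cells (-1.26, SE 0.27, adjusted p = 0.0129). The type 2 levels of Cd74 were 1704, 1009 and 1103 CPM in AML and 2884, 3324 and 3777 CPM in Control, and the fibroblast counts were 1, 2 and 7 UMIs in AML and 13, 12 and 37 in Control.

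Alveolar fibroblasts also had the largest called fall of a secreted factor on that list. Igf1, insulin-like growth factor, stood at 13.7, 3.62 and 21.9 CPM in AML and 68.3, 166 and 146 CPM in Control (log2 -3.28, SE 0.51, adjusted p = 0.00520), a call lost at the coarser clustering (-1.30, adjusted p = 0.440), where the class grew to 991 cells and no adventitial class was left. Angpt1, a ligand of the receptor TIE2, rose to 587, 454 and 627.5 CPM in AML against 315, 270.5 and 292 CPM in Control (log2 0.94, SE 0.24, adjusted p = 0.0279). Spp1, osteopontin, rose in general capillary cells to 5.75, 13.8 and 12.6 CPM in AML against 1.36, 3.86 and 1.32 CPM in Control (log2 2.27, SE 0.48, adjusted p = 0.0412). Pericytes carried far more Spp1, as given in the last paragraph, and the part of pericyte RNA in these low capillary levels was not tested. In all 8 pairs the AML and Control ranges did not overlap. Of the 8, Igf1 alone kept its call without each library in turn. Itga4 and Lifr lost theirs without AML 2 (adjusted p = 0.0927 and 0.141) or AML 3 (0.0998 and 0.128), and Lifr also with equal cells per library (0.0802). Cd74 lost its aerocyte call without AML 2 (0.186), AML 3 (0.269), Control 1 (0.0852) or Control 2 (0.0554), with free RNA subtracted (0.0755) and with doublets kept, where the change was -0.46 (0.808). It lost its fibroblast call without Control 3 (0.0585), and its type 2 call without AML 2 (0.137), AML 3 (0.123) or Control 3 (0.0586). Angpt1 lost its call without AML 1 (0.0508), AML 3 (0.140), Control 2 (0.0661) or Control 3 (0.145), with the replicate number as a block (0.0645) and in cells with no endothelial UMI (0.0825). Spp1 lost its call without AML 2 (0.0986), AML 3 (0.162), Control 1 (0.198) or Control 3 (0.130), with doublets kept (0.0623) and at the coarser clustering (0.0578). The wider list's count was 22 of 123 without AML 1 (5.14% of all pairs), 3 of 127 without AML 2 (0.646%), 3 of 123 without AML 3 (0.504%) and 4 of 118 without Control 3 (1.11%).

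Levels of other genes followed those of the members across the 17 class means. Among 11916 genes with a class mean of at least 20 CPM, Pearson's r of log2(CPM + 1) was highest with Kitl for Tmem204 (0.957), with Cxcl12 for Uaca (0.940) and with Kit for Slk (0.915). Anpep led for Il33 (0.886), Fam114a1 for Csf1 (0.894), Tmem178 for Il34 (0.878) and Atf7ip for Cxcr4 (0.864). For Ackr3 it was Tek (0.884), the gene of the receptor TIE2. The next 2 were Slc16a9 and Fmo1 for Kitl, Il17rd and Hoxa5 for Cxcl12, Ripply3 and Myct1 for Kit, and Car14 and Hs3st1 for Ackr3. They were Prcd and Tspan11 for Il33, Med13l and Ndrg1 for Csf1, Tafa1 and Ppy for Il34, and Cd84 and Morc3 for Cxcr4. The points are classes of the same libraries, and the values are a description.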

How the data were processed

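Raw UMI counts per gene and cell were deposited as 1 matrix per library. They were made with Cell Ranger 6.0.1 per the file headers and Cell Ranger 7.0.0 per the submitters' processing notes, on mm10. The authors' counting options and cell filter are not given in the sources used here. From 28516 barcodes, 3415 with under 500 genes, 461 with over 15% mitochondrial UMIs and 895 doublets (Scrublet's highest scores, 0.8% per 1000 cells) were left out. Cells were clustered with scanpy 1.11.5 (2000 variable genes, 30 components, 15 neighbours, Leiden resolution 1.0, seed 7), without the members and the wider list. Clusters were named by the mean log2 fold of fixed markers, of which at least 3 were detected. Counts were summed per library and class, so cells are not replicates. They were tested with edgeR 4.0.16 (robust quasi-likelihood, TMM, filterByExpr, Benjamini-Hochberg within a class, threshold 0.05). The wider list was named where a pair passed with no overlap of libraries, and the 3 most alike genes per member (those of Csf1r are not reported here). The members and lists were chosen with earlier results of these data known. On simulated data 95.8 to 100% of 4-fold and 29.0 to 72.7% of 2-fold changes were called, as the range over classes. The simulation gave all genes of a class the same spread between libraries, while the spread of real genes differs. Recovery at the UMI counts and spread of the members themselves was not tested. Libraries of 1 group differed beyond sampling noise (chi-square per degree of freedom 7.66 to 46.2 in general capillary cells). Alternatives were RLE factors, DESeq2 1.42.0, no low-count filter, a replicate block, doublets kept, coarser clusters, equal cells, members among the clustering genes, free RNA subtracted, each library left out and, chosen after seeing the data, cells with no endothelial UMIs. The split of arterial cells by the coarser clustering and the values within clusters were also chosen after seeing the data.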

Additional observations from a re-analysis of the deposited data

Results flagged for a closer look

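In 4 of 63 pairs of member and class the AML against Control change differed from that in general capillary cells by a test of the difference itself (edgeR interaction term, adjusted p under 0.05), where 1.64% of all gene and class pairs passed. For Kit in arterial endothelium the difference was -0.97 on the log2 scale, with arterial levels of 166, 51.0 and 73.9 CPM in AML and 345, 305 and 378 CPM in Control. For Cxcr4 in pericytes it was 1.96, for Kitl in ciliated cells -1.63 and for Kitl in alveolar duct myofibroblasts -2.25. On the wider list 12 of 191 pairs passed. One of them, Angpt1 in alveolar fibroblasts, was also called within its own class, where it rose, and the difference was 1.59 (SE 0.28, adjusted p = 0.00129), and at equal cell numbers it was 1.15 (adjusted p = 0.200). No causes were tested for these differences.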

How the results depend on the processing

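The 8 calls in 43 member pairs (2.28% of all pairs) became 13 of 92 with no low-count filter (2.67%), 5 of 43 at Leiden resolution 0.5 (1.88%), 4 of 37 with equal cells per library (2.55%) and 3 of 30 in cells with no endothelial UMIs (2.38%). In that last setting ciliated, smooth muscle, pericyte and myofibroblast classes were not fitted, with under 20 cells in a library. Leaving out 1 library gave 0 to 19, where 0.504 to 5.14% of all pairs passed. The 8 calls in 114 pairs of the wider list became 13 of 279 with no filter and 3 to 22 with 1 library left out. The 4 of 63 differences from general capillary cells (1.64%) became 10 of 90 with no filter (1.67%), 1 of 65 with doublets kept (1.5%), 1 of 36 in cells with no endothelial UMIs (1.87%) and 3 to 15 with 1 library left out (0.795 to 3.13%). RLE factors (8), DESeq2 (7), members kept among the clustering genes (8) and free RNA subtracted (8) left the member count within 1.5 times. The leading class of a member held for 7 to 10 of 10 members. Kit in alveolar type 2 cells turned to 0.049 with doublets kept, and its arterial difference from general capillary cells to 0.30 at Leiden resolution 0.5. The causes of these shifts were not tested.

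Replicate numbers gave little sign of pairing the libraries. Correlations of same-numbered libraries were -0.025, -0.035 and 0.008 in general capillary cells, and between -0.172 (alveolar fibroblasts) and 0.105 (alveolar type 2 cells) over all tested classes. With the replicate number as a block, 6 member calls and 9 of the wider list were made. Median depth per cell was lower in AML in every tested class, which limits genes with few UMIs most.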

Other observations

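Leukaemia cells carried receptors of the wider list beside Kit. Il1rl1, which encodes the IL-33 receptor ST2, stood at 71.9, 72.1 and 114 CPM in the 3 AML libraries, the highest mean of the 17 classes (85.9 CPM), and T or NK lymphocytes were next at 24.3 ± 15.4 CPM (SD, n = 5). Itga4 was at 187 ± 17.7 CPM, Il2rg, the shared gamma chain of several interleukin receptors, at 107 ± 23.9 CPM and Crlf2, the receptor gene of the cytokine TSLP, at 24.6 ± 9.16 CPM (SD, n = 3). Leukaemia cells also led all classes for Mif, the gene of a cytokine that binds CD74, with 839, 1152 and 780 CPM, while Cd74 itself was at 6.20 CPM in them. Csf3r had 0 UMIs in the leukaemia cells of all 3 AML libraries and Flt3 had 4.

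Spp1 was highest in pericytes, at 1266.5, 7103 and 2232 CPM in AML and 196, 747 and 645 CPM in Control, with no overlap and no call (log2 2.69, SE 0.73, adjusted p = 0.330, edgeR). These genes were picked after their values were seen.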
